A study of Mus musculus with 20 samples.

Results

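CC chemokines are small secreted proteins that bring leukocytes to a site of inflammation. Described here are the 10 CC chemokine genes that macrophages are best known for: Ccl2, Ccl3, Ccl4, Ccl5, Ccl6, Ccl7, Ccl9, Ccl17, Ccl22 and Ccl24. They were taken by gene symbol from a count table of 21963 gene entries; all 10 were in it, and 8 passed the filter on low counts, Ccl17 and Ccl24 being the exceptions. The table held 20 RNA-seq libraries of mouse bone marrow-derived macrophages (BMDMs), cells grown from bone marrow of mice aged 15 to 25 weeks in a medium that supplies macrophage growth factor. Mcu encodes the pore of the mitochondrial calcium uniporter, the channel through which mitochondria take up calcium. WT BMDMs were left untreated (n = 4), stimulated with zymosan for 3 h (n = 5), or loaded with BAPTA-AM and given the same zymosan (n = 4). BAPTA-AM is a cell-permeant chelator that buffers cytosolic calcium. The doses, 2 zymosan particles per cell and 10 µM BAPTA-AM, are those the study states for its quantitative PCR, where inhibitors were added before zymosan. Mcu-/- BMDMs were left untreated (n = 4) or given zymosan for 3 h (n = 3). There was no BAPTA-AM group without zymosan and none in Mcu-/- BMDMs. The Mcu-/- mice carried a floxed Mcu deleted by a Cre that the Cx3cr1 promoter drives in cells of the monocyte lineage; whether the WT mice carried Cre or the floxed allele is not given in the sources used here. The labels call the replicates biological, without saying whether each came from its own mouse.

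Zymosan is a preparation of yeast cell wall that macrophages sense through Toll-like receptor 2 and dectin-1. Both routes reach NF-κB, and the dectin-1 route also raises cytosolic calcium. CC chemokines act through G protein-coupled CC receptors: CCL2 and CCL7 bind CCR2 and draw monocytes, CCL3, CCL4 and CCL5 draw monocytes and T cells, CCL3 and CCL5 by way of CCR1 among others, and CCL6 and CCL9, found in rodents, bind CCR1. CCL17 and CCL22 bind CCR4 and CCL24 binds CCR3. The last 3 are associated with alternatively activated macrophages and dendritic cells, the others mostly with inflammatory or resting macrophages. The study set out to find genes whose zymosan response depends on calcium, raised in the cytosol when mitochondrial uptake is lost and clamped by BAPTA-AM.

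The family takes its name from a pair of adjacent cysteines near the start of the mature protein. To show it, 6 members of chromosome 11 are given by the 30 coding bases around that pair, read from GENCODE M21 on the GRCm38 (mm10) build, 5′ to 3′ on the strand of the gene, with the cysteine codons in capitals; each stretch lies within a single coding exon. They are listed in the order of their genes along chromosome 11, which form 2 clusters:
Ccl2, chr11:82036494-82036523, plus strand: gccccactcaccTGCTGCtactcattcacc
Ccl7, chr11:82046526-82046555, plus strand: aatgcatccacaTGCTGCtatgtcaagaaa
Ccl5, chr11:83529230-83529259, minus strand: gacaccactcccTGCTGCtttgcctacctc
Ccl9, chr11:83575914-83575943, minus strand: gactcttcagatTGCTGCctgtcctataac
Ccl6, chr11:83589374-83589403, minus strand: acttcttcagacTGCTGCttctcttatgcc
Ccl4, chr11:83663470-83663499, plus strand: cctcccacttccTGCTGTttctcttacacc

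Ccl2 and Ccl7 are neighbours in the first cluster, Ccl9 and Ccl6 in the second, and Ccl3 and Ccl4 stand next to each other on opposite strands. Over the whole coding sequence the closest relatives among the 7 members on chromosome 11 were Ccl3 and Ccl4, identical at 69.5% of aligned bases, and Ccl6 and Ccl9, identical at 66.8%. The remaining members lie elsewhere, Ccl22 (chr8:94745590-94751699) and Ccl17 (chr8:94810453-94812036) both on chromosome 8, and Ccl24 on its own (chr5:135569937-135573049). Ccl2 overlaps Gm17268 and Ccl6 overlaps E230016K23Rik, each on the other strand. The strand setting of the counting is not given in the sources used here, so reads of these genes and of their antisense partners cannot be told apart.

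Depth ran from 14420402 to 23954552 counts per library, and levels are given as CPM, counts scaled to a common library size after TMM normalization. Mcu, the deleted gene, stood at 7.34 ± 0.837 CPM in untreated WT and 3.32 ± 0.690 CPM in untreated Mcu-/- BMDMs (SD, n = 4 each), a log2 fold change of -1.14 ± 0.13 (SE, adjusted p = 0.000163). Under zymosan Mcu stood at 6.64 ± 0.448 CPM in WT (SD, n = 5) and 3.75 ± 0.200 CPM in Mcu-/- BMDMs (n = 3). The log2 difference there was smaller, -0.82 ± 0.14 (SE, edgeR's quasi-likelihood test, adjusted p = 9.61e-05). Mcu counts were taken over the whole gene, not the deleted stretch alone. Each of the 8 macrophage markers examined passed the filter in these libraries, Lyz2 and Adgre1 the most abundant. Untreated Mcu-/- replicate 4 stood apart: 10.7% of the 11707 genes tested lay more than 2-fold from the mean of the other replicates, against at most 0.709% for any other library. It shared marker levels with the 3 Mcu-/- zymosan libraries that the other 16 libraries did not show. The summed CPM of the macrophage markers was 8555 in replicate 4 and 10407 to 10765 in the Mcu-/- zymosan libraries, against 13355 to 16392 in the other 16. Within that list Lyz2, Adgre1, Itgam and Cd14 were lower in replicate 4, at 2822, 2462, 238 and 198 CPM. Their means in the other untreated Mcu-/- libraries were 8113, 4247, 759 and 239 CPM. Cd68, Fcgr1, Csf1r and Mertk were higher in replicate 4, at 970.5, 518, 1270 and 76.0 CPM, against 255, 118, 840 and 38.0 CPM. The 5 fibroblast markers, 3 of them above the filter, summed to 28.3 CPM in replicate 4. Their sum was 44.0 to 52.3 CPM in the Mcu-/- zymosan libraries, against 1.10 to 6.63 CPM elsewhere. Col1a1, Col1a2 and Col3a1 averaged 21.7, 23.2 and 3.73 CPM in the Mcu-/- zymosan libraries, against 2.03, 2.19 and 0.905 CPM in WT zymosan libraries. Dcn and Pdgfra stayed below 0.3 CPM in the mean of every group. With zymosan Dcn averaged 0.286 CPM in Mcu-/- and 0.138 CPM in WT libraries, and Pdgfra 0.111 and 0.143 CPM. Markers of neutrophils and dendritic cells summed to at most 5.41 and 11.8 CPM in any library, the latter mostly Xcr1. T and NK cell, mast cell and erythroid lists summed to under 0.7 CPM. The B cell list reached 55.4 CPM, most of it Cd79b. The neutrophil list was at 0.159 CPM in replicate 4 and 0.452 to 0.589 in the Mcu-/- zymosan libraries, against 2.22 to 5.41 elsewhere. The B cell list was at 18.1 and 12.4 to 13.3 CPM there, against 30.4 to 55.4 elsewhere. Fibroblasts are known producers of Ccl2 and Ccl7. The part of any of these marker differences in the Mcu-/- results was not tested. Values without replicate 4 are therefore given beside those it moved.

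**Figure D1:**
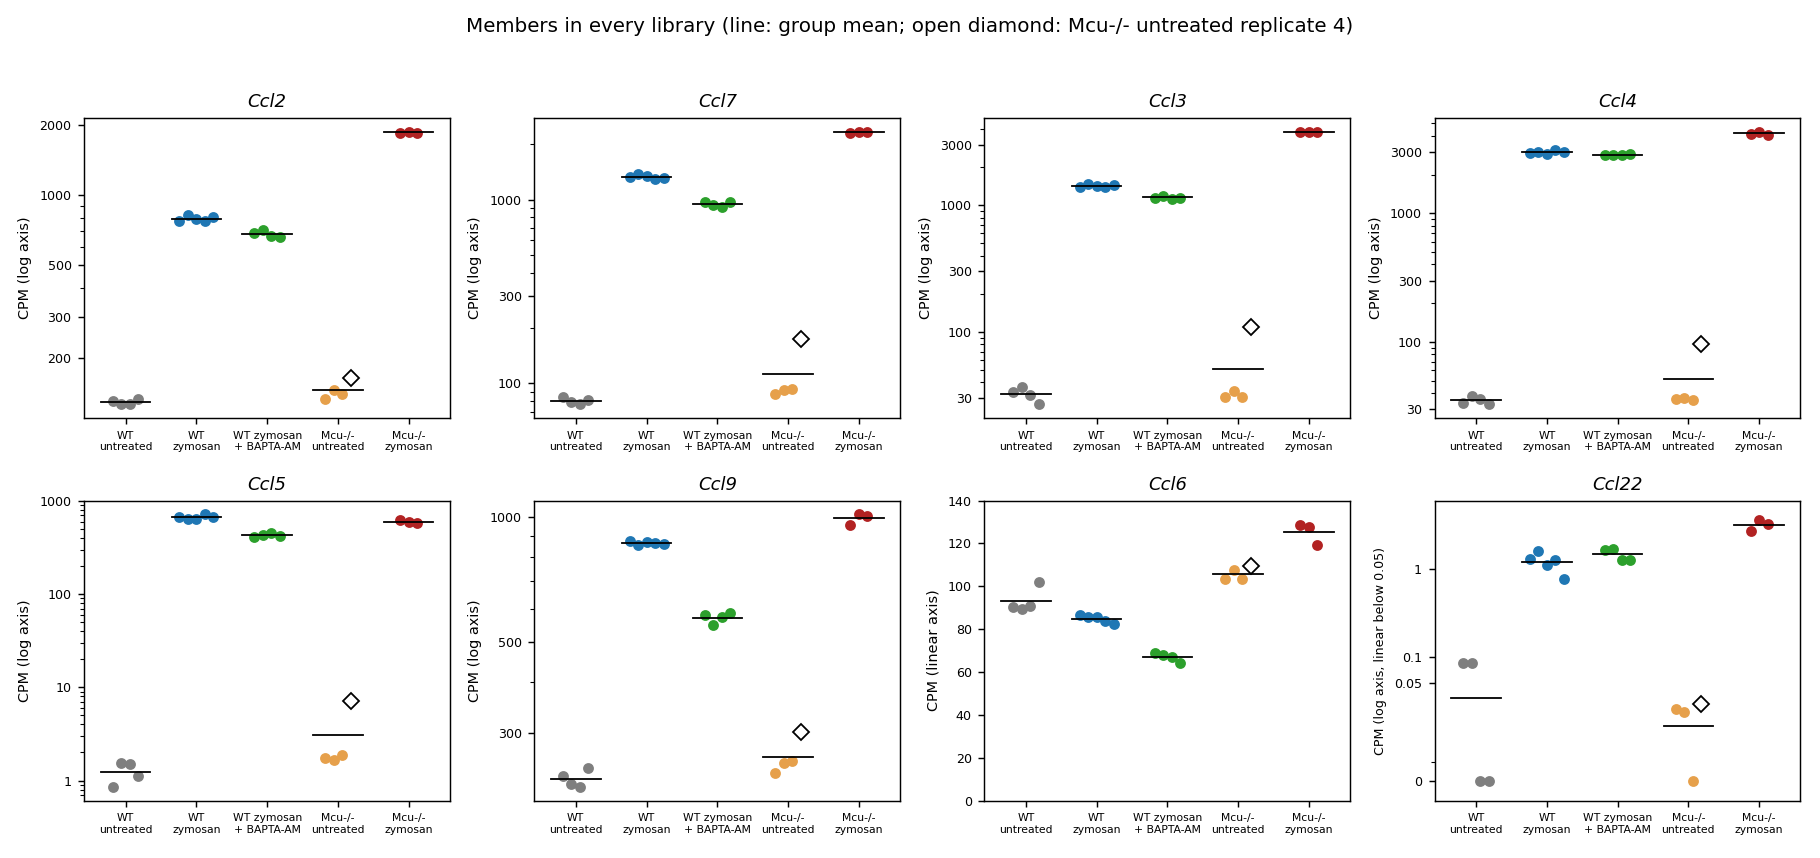
Level of 8 CC chemokine genes (CPM) in each of the 20 libraries, with 1 point per library, a line at the group mean and an open diamond for untreated Mcu-/- replicate 4. Axes are logarithmic except for Ccl6 (linear from 0) and Ccl22 (linear below 0.05 CPM). Ccl3, Ccl4, Ccl5 and Ccl7 rise steeply with zymosan, Ccl6 stays between 64.1 and 128.6 CPM throughout, and the diamond lies above the other untreated Mcu-/- points for Ccl3, Ccl4, Ccl5 and Ccl7.

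Untreated WT BMDMs already transcribed the monocyte attractants Ccl2 and Ccl7 and the CCR1 ligand Ccl9. To compare genes, CPM was divided by the exon length in kilobases. On that scale Ccl2 was the highest at 114 ± 2.90 CPM per kb (SD, n = 4), followed by Ccl7 at 99.96 ± 3.98 and Ccl9 at 76.5 ± 3.62. Ccl4 (53.1 ± 3.81) and Ccl6 (51.8 ± 3.30) came next with overlapping libraries, then Ccl3 (42.2 ± 5.45). Ccl5 was far below them at 1.30 ± 0.336 CPM per kb, and Ccl24, Ccl17 and Ccl22 were below 0.2 with overlapping libraries.

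After 3 h of zymosan the order was different. In WT BMDMs Ccl4 was the highest at 4527 ± 104 CPM per kb (SD, n = 5), ahead of Ccl3 (1853 ± 43.1) and Ccl7 (1662 ± 41.7). Ccl5 (699 ± 34.7) and Ccl2 (696 ± 17.4) overlapped, and Ccl9 (285 ± 2.51) and Ccl6 (47.3 ± 0.959) followed. With BAPTA-AM the same first 3 places held, and Ccl2 (597 ± 17.9) stood above Ccl5 (447 ± 16.7) without overlap. In zymosan-stimulated Mcu-/- BMDMs the first 4 were Ccl4 (6323 ± 189, SD, n = 3), Ccl3 (4954 ± 29.0), Ccl7 (2902 ± 24.4) and Ccl2 (1629.6 ± 12.5), none overlapping its neighbour. Together the 10 genes took 0.0742% ± 0.00241 of all counts in untreated WT libraries (SD, n = 4) and 0.711% ± 0.00948 with zymosan (n = 5). The share was 0.608% ± 0.00641 with zymosan and BAPTA-AM (n = 4) and 1.17% ± 0.0134 in zymosan-stimulated Mcu-/- BMDMs (n = 3). Untreated Mcu-/- replicates 1 to 3 gave 0.0806% ± 0.00283 and replicate 4 gave 0.111%. The ranges of the 3 zymosan groups did not overlap.

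**Figure D2:**
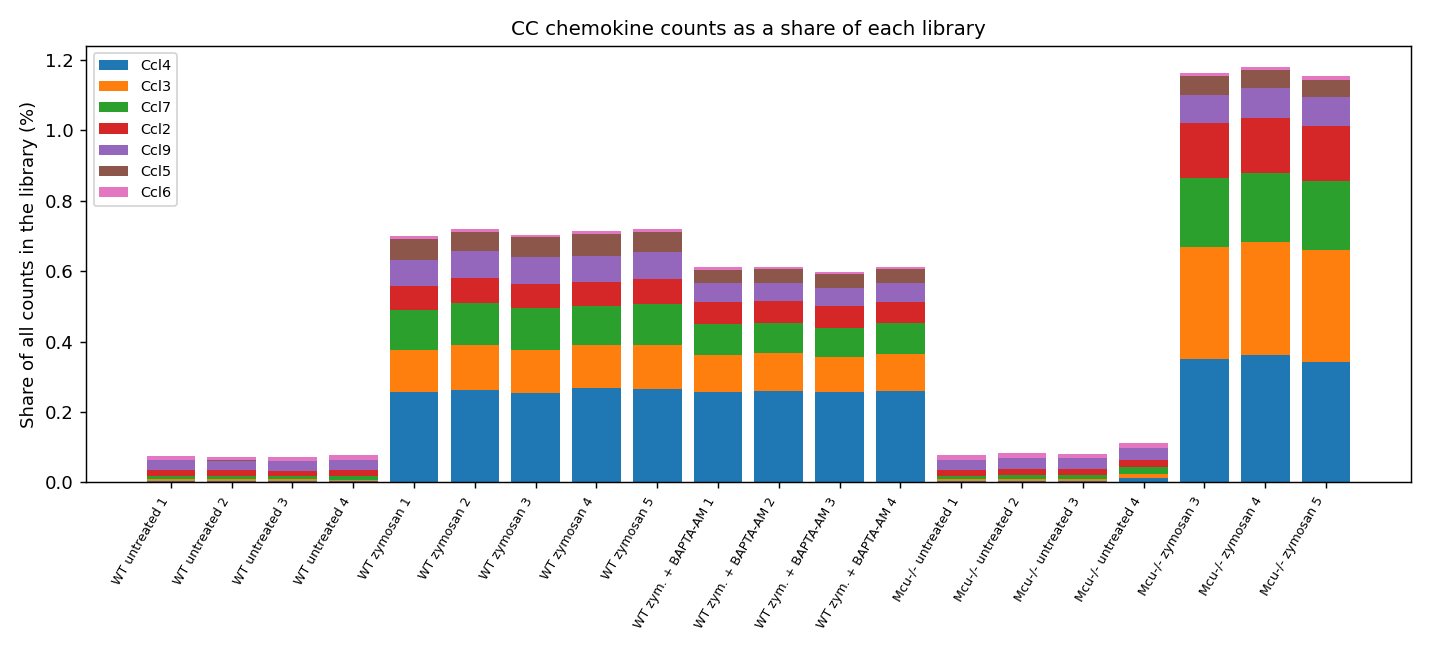
Counts of the 7 most abundant CC chemokines as a share of all counts in each library (percent, stacked bars from 0, 1 bar per library). Bars of zymosan-stimulated Mcu-/- BMDMs reach 1.16% to 1.18%, those of WT 0.699% to 0.720%, and Ccl3 takes nearly as much of a bar as Ccl4 in the former and less than Ccl4 in the latter.

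Each of the 8 genes tested moved with zymosan. Ccl22 had at most 2 reads in any untreated WT library and passed the filter through zymosan libraries. Its place among the rises with zymosan is therefore no separate support. In WT BMDMs 7 rose and Ccl6 fell, where 32.4% of all 11707 genes tested were called higher and 36.8% lower (edgeR's quasi-likelihood test, Benjamini-Hochberg adjusted p under 0.05); the median log2 fold change was 4.32 over the 8 members and -0.04 over all genes. With BAPTA-AM present the counts were the same, 7 higher and 1 lower, beside 31.9% and 34.2% of all genes. BAPTA-AM under zymosan lowered 4 members (Ccl2, Ccl6, Ccl7 and Ccl9) and raised 0, where 6.43% of all genes were called higher and 6.33% lower; without untreated Mcu-/- replicate 4, whose spread enters the shared estimate of error, 7 members were lower, beside 16.5% of all genes. At an unadjusted p under 0.05 the number of members raised by BAPTA-AM was also 0, and DESeq2's Wald test raised 0.

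Under zymosan 6 members were higher in Mcu-/- than in WT BMDMs and 0 lower, beside 31.8% of all genes higher and 30.3% lower, so that a large part of the transcriptome differed between these groups in both directions; without replicate 4 the counts were 7 and 1, beside 36.4% and 33.7%. In untreated cells 0 members passed in either direction, where 0.128% of all genes were called higher and 0.222% lower, though 7 of the 8 were higher at an unadjusted p under 0.05, as were 9.77% of all genes, with 5.12% lower. The differences of Ccl3 and Ccl4 were -0.03 and 0.03 without it. Without replicate 4, 2 members were higher, beside 1.53% of all genes, and DESeq2's Wald test called 1 higher. Zymosan raised all 8 tested members in Mcu-/- BMDMs, where 34.3% of all genes were called higher and 39.4% lower. Ccl22 is again in this count through zymosan libraries alone. The count was 8 without replicate 4 as well. That library moved the sizes: the log2 response of Ccl3 was 6.21 ± 0.36 with it and 6.90 without, that of Ccl4 6.35 ± 0.28 and 6.86, and that of Ccl5 7.62 ± 0.34 and 8.41. For Ccl2 the values were 3.67 ± 0.06 and 3.73, and for Ccl7 4.37 ± 0.17 and 4.67. The difference between the 2 genotypes in the zymosan response (the interaction) passed for 2 members with a larger response in Mcu-/- and 1 with a smaller response, beside 15.2% and 20% of all genes; without replicate 4 it passed for 5 and 1, beside 31% and 29.3% of all genes. Comparisons that share a control group are not independent of each other.

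**Figure D3:**
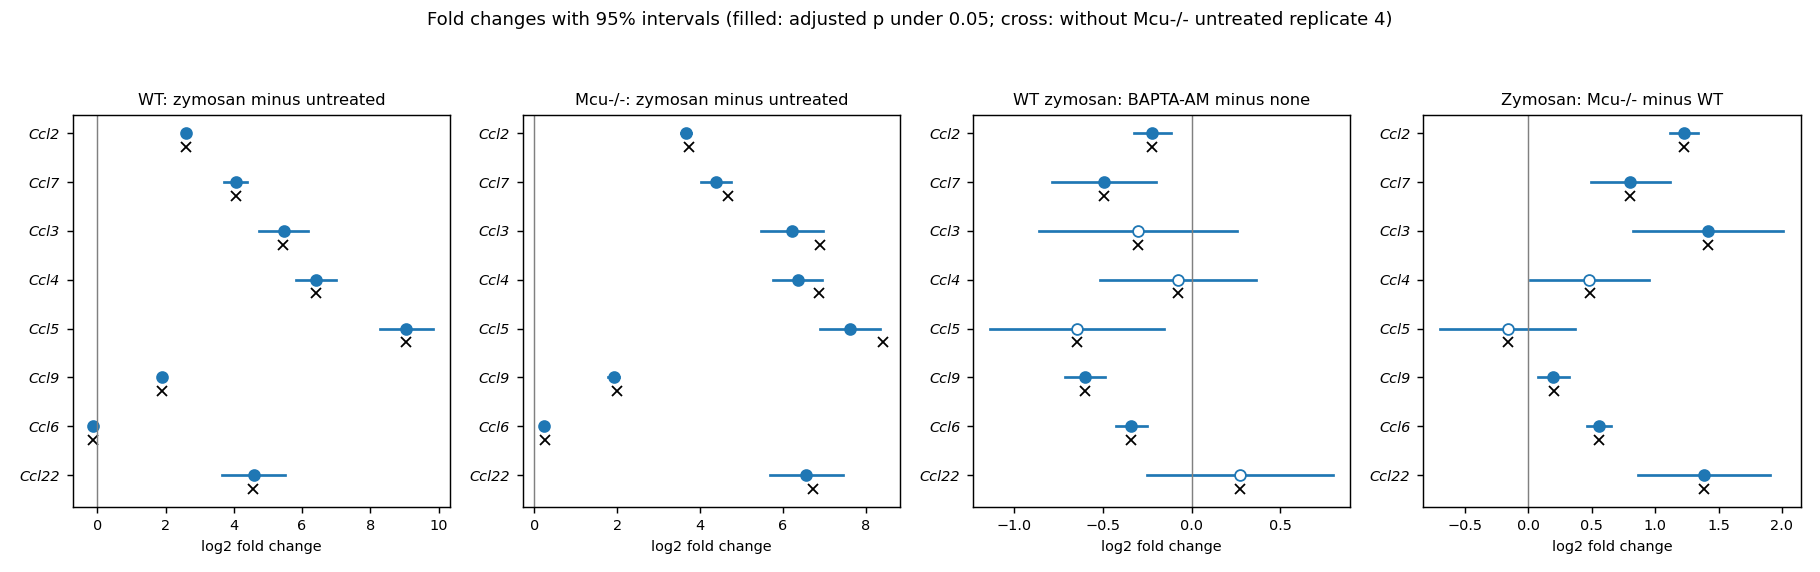
Log2 fold change of 8 CC chemokine genes in 4 comparisons with 95% intervals from the fit of all 20 libraries; filled points have an adjusted p under 0.05, and crosses give the estimate without untreated Mcu-/- replicate 4. Ccl5 has the largest response to zymosan in WT at 9.05, and Ccl3, Ccl22 and Ccl2 the largest differences between Mcu-/- and WT. Ccl6 lies close to 0 in both zymosan panels and its Mcu-/- response turns negative when libraries are scaled by their totals.

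Ccl2, the main monocyte attractant and ligand of CCR2, was measured in untreated WT BMDMs at 131, 128, 127 and 134 CPM. Zymosan brought the 5 WT libraries to 773, 820.0, 788, 776 and 805 CPM. With zymosan and BAPTA-AM the values were 685, 706, 664 and 663 CPM. The 3 groups did not overlap, and the chelated libraries lay between the others but close to zymosan alone. The zymosan response was 2.61 ± 0.05 on the log2 scale (SE, adjusted p = 1.97e-18), a 6.11-fold rise. BAPTA-AM left 85.8% of the zymosan level (log2 difference -0.22 ± 0.05, adjusted p = 0.00529; exact two-sided permutation p = 0.00794, the smallest that 5 against 4 libraries allow).

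In Mcu-/- BMDMs Ccl2 started at 133, 147, 139.9 and 165 CPM, replicate 4 the highest, and reached 1845, 1871 and 1848 CPM with zymosan. Those 3 zymosan values lay close together and far above every WT library. Under zymosan Mcu-/- exceeded WT by 1.23 ± 0.05 on the log2 scale (2.34-fold, adjusted p = 3.44e-12). In untreated cells the genotypes overlapped and the difference of 0.17 ± 0.05 did not pass (adjusted p = 0.195; 0.11 without replicate 4, adjusted p = 0.0697). The zymosan response was larger in Mcu-/- BMDMs by 1.06 ± 0.07 (adjusted p = 1.27e-08; 1.12 without replicate 4). Ccl2 and Ccl6 were the members whose larger response passed with and without that library.

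Ccl7 encodes a further ligand of CCR2 and sits beside Ccl2. Its untreated WT values were 84.0, 78.6, 76.6 and 81.1 CPM and its zymosan values 1324, 1377, 1349, 1289.6 and 1316 CPM. With BAPTA-AM they were 969, 935, 913 and 967 CPM, below each of the zymosan libraries. The rise with zymosan was 4.06 ± 0.16 on the log2 scale (16.6-fold, adjusted p = 4.47e-14), so Ccl7 started below Ccl2 and ended above it. BAPTA-AM left 71.1% of the level (log2 difference -0.49 ± 0.14, adjusted p = 0.0254). That call was lost, with adjusted p from 0.0506 to 0.066, when WT zymosan replicate 2 or any 1 of the 4 BAPTA-AM libraries was left out, the difference staying between -0.50 and -0.48.

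Untreated Mcu-/- replicates 1 to 3 held Ccl7 at 87.7, 92.2 and 93.3 CPM and replicate 4 at 175 CPM. The Mcu-/- zymosan libraries held 2305, 2344 and 2324 CPM, above all WT libraries. The difference from WT under zymosan was 0.80 ± 0.15 (1.75-fold, adjusted p = 0.000155). In untreated cells each Mcu-/- library was above each WT library, with a difference of 0.48 ± 0.15 (adjusted p = 0.195) in all libraries and 0.19 (adjusted p = 0.000903) without replicate 4. The interaction was 0.32 ± 0.21 (adjusted p = 0.247) and, without replicate 4, 0.62 (adjusted p = 9.1e-15).

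Ccl3 encodes MIP-1α, a ligand of CCR1. It was at 33.7, 36.7, 32.0 and 26.7 CPM in untreated WT BMDMs and at 1383, 1469, 1411, 1401 and 1432 CPM with zymosan. With BAPTA-AM the 4 values, 1149.9, 1193, 1118 and 1150.2 CPM, were all below the zymosan values. The response to zymosan was 5.46 ± 0.34 on the log2 scale (43.9-fold, adjusted p = 3.08e-11). The BAPTA-AM difference of -0.30 ± 0.27 did not pass across all genes (adjusted p = 0.555, 95% interval -0.86 to 0.26), while the exact permutation p was 0.00794, the smallest possible. Without untreated Mcu-/- replicate 4 the same difference of -0.30 passed (adjusted p = 4.38e-09), although that library is in neither group compared: Ccl3 was 3.45 times as high in it (109.6 CPM) as in replicates 1 to 3 (30.8, 33.9 and 30.6 CPM).

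Zymosan-stimulated Mcu-/- BMDMs had the largest Ccl3 values, 3772, 3817 and 3795 CPM. They exceeded WT under zymosan by 1.42 ± 0.28 (2.67-fold, adjusted p = 0.000312), the largest such difference among the members. In untreated cells the genotypes overlapped, and the log2 difference was 0.66 ± 0.29 (adjusted p = 0.305) with replicate 4 and -0.03 (adjusted p = 0.869) without it. The interaction depended on the same library, at 0.76 ± 0.41 (adjusted p = 0.154) in all libraries and 1.45 (adjusted p = 8.67e-21) without it. Against replicate 4 alone the zymosan level of Mcu-/- BMDMs was 34.6-fold higher, and against replicates 1 to 3 119-fold, where WT rose 44.0-fold.

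Ccl4, the gene of MIP-1β, an attractant of monocytes and T cells, stood beside Ccl3 at similar untreated levels, 33.4, 38.1, 36.1 and 32.6 CPM in WT. Zymosan brought it to 2966, 2999.5, 2890.2, 3080.3 and 3004 CPM, the highest level of any member. With BAPTA-AM the values were 2814, 2839, 2818 and 2866 CPM, each below the lowest zymosan library. The response to zymosan was 6.41 ± 0.28 (85.2-fold, adjusted p = 1.37e-13). The difference under BAPTA-AM was small, -0.08 ± 0.21 (adjusted p = 0.887; -0.08 without replicate 4, adjusted p = 0.0229), so 94.9% of the level remained, the highest share among the 7 members that were abundant after zymosan.

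In Mcu-deficient cells Ccl4 was at 36.0, 36.4 and 35.4 CPM in untreated replicates 1 to 3, at 97.0 CPM in replicate 4, and at 4123, 4315 and 4082 CPM with zymosan. The zymosan libraries of the 2 genotypes did not overlap. Their difference was 0.48 ± 0.22 (adjusted p = 0.0705; exact permutation p = 0.0179, the smallest that 3 against 5 allow), and it passed without replicate 4 (adjusted p = 3.8e-18). The interaction changed sign with that library, from -0.06 ± 0.32 (adjusted p = 0.901) to 0.45 without it (adjusted p = 1.03e-09).

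Because Ccl3 and Ccl4 are adjacent and alike, their counts were also set against each other within each library, a ratio that library scaling does not touch and that was chosen after the values were seen. The ratio of Ccl3 to Ccl4 counts was 0.919 ± 0.0831 in untreated WT libraries (SD, n = 4), 0.475 ± 0.0148 with zymosan (n = 5) and 0.407 ± 0.0103 with BAPTA-AM (n = 4). In Mcu-/- BMDMs it was 0.884 ± 0.0418 in untreated replicates 1 to 3, 1.13 in replicate 4 and 0.910 ± 0.0231 with zymosan (n = 3). The 2 genes thus rose by unequal factors in WT and, against untreated replicates 1 to 3, by nearly equal factors in Mcu-/- libraries (119-fold for Ccl3 and 116-fold for Ccl4). Against replicate 4 alone the factors were 34.6 and 43.0. For the other pair of neighbours, Ccl2 to Ccl7, the ratio fell from 1.62 ± 0.0435 to 0.595 ± 0.0119 in WT, was 0.719 ± 0.0296 with BAPTA-AM, and went from 1.53 ± 0.0489 (replicates 1 to 3; 0.942 in replicate 4) to 0.798 ± 0.00250 in Mcu-/- BMDMs.

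Ccl5, the gene of RANTES, which attracts T cells and monocytes by way of CCR1 among others, went from near silence to a high level. Untreated WT libraries held 0.852, 1.53, 1.498 and 1.12 CPM, or 20, 36, 35 and 20 reads. With zymosan they held 676, 645, 638, 722 and 673 CPM, and with BAPTA-AM 414, 432, 450.2 and 420.1 CPM. The groups were far apart, and the 532-fold rise (log2 9.05 ± 0.37, adjusted p = 6.25e-14) was the largest of the members. BAPTA-AM left 63.9% of the zymosan level, the lowest share among the members, with a difference of -0.65 ± 0.23 (adjusted p = 0.0815; adjusted p = 4.54e-18 without untreated Mcu-/- replicate 4; exact permutation p = 0.00794).

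Ccl5 was the member whose fitted difference between Mcu-/- and WT under zymosan was negative. Its values in Mcu-/- BMDMs were 622, 598 and 579 CPM, each below the lowest WT zymosan library. The difference of -0.16 ± 0.25 did not pass (adjusted p = 0.595, 95% interval -0.69 to 0.37; exact permutation p = 0.0357), and passed as lower without replicate 4 (adjusted p = 0.000149). Untreated Mcu-/- libraries, at 1.74, 1.67, 1.86 and 7.10 CPM, were all above the untreated WT libraries, replicate 4 by the widest gap. That difference was 1.28 ± 0.39 (adjusted p = 0.195; 0.48 without replicate 4, adjusted p = 0.185). Zymosan raised Ccl5 less in Mcu-/- than in WT BMDMs, with an interaction of -1.44 ± 0.47 on the log2 scale (adjusted p = 0.0236; -0.64 without replicate 4, adjusted p = 0.00398; adjusted p = 0.0577 without untreated WT replicate 1).

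Ccl9 and Ccl6 encode rodent ligands of CCR1 that resting myeloid cells already make, and they behaved differently from each other. Ccl9 was at 236, 226, 223 and 247 CPM in untreated WT libraries, the most counted member there. With zymosan it reached 875, 856, 869.8, 869 and 862 CPM, a 3.72-fold rise (log2 1.89 ± 0.06, adjusted p = 4.45e-16). With BAPTA-AM it was 580.2, 548, 573 and 587 CPM. BAPTA-AM thus left 66.0% of the level (log2 difference -0.60 ± 0.05, adjusted p = 5.73e-07), the largest fall among the members that passed. The 3 groups did not overlap, and the spread within each was small beside the gaps between them.

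Among Mcu-/- libraries Ccl9 was at 240.3, 255, 257 and 302 CPM untreated and 957, 1018 and 1008 CPM with zymosan. The zymosan difference from WT was 0.20 ± 0.06 (1.15-fold, adjusted p = 0.006), small beside that of Ccl2 or Ccl3. The zymosan responses of the 2 genotypes were 1.89 and 1.92, and their difference of 0.02 ± 0.08 did not pass (adjusted p = 0.857, 95% interval -0.15 to 0.19; adjusted p = 0.077 without replicate 4).

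Ccl6 moved least. Its untreated WT values were 90.4, 89.2, 90.7 and 102 CPM, its zymosan values 86.6, 85.9, 85.8, 83.8 and 82.4 CPM and its BAPTA-AM values 69.0, 67.9, 67.2 and 64.1 CPM. Each group lay below the one before without overlap. Zymosan lowered it, with a log2 change of -0.13 ± 0.04 (adjusted p = 0.00802), to 91.2% of the untreated level. It was -0.62 under library totals, which moved the median of all genes by -0.491, and -0.09 (adjusted p = 0.0457) without untreated WT replicate 4. The change from zymosan alone to zymosan with BAPTA-AM was -0.34 ± 0.04 (adjusted p = 2.33e-05). In Mcu-/- BMDMs zymosan moved it the other way, from 103, 108, 103 and 109.7 CPM to 129, 127 and 119 CPM, a difference of 0.24 ± 0.05 (adjusted p = 0.000149) that became -0.28 (adjusted p = 2.32e-05) when libraries were scaled by their totals, a scaling that shifted the median of all genes by -0.522. The interaction, which that scaling left higher, was 0.37 ± 0.06 (adjusted p = 0.00024). Under zymosan Mcu-/- exceeded WT by 0.56 ± 0.04 (adjusted p = 1.14e-08). In untreated cells each Mcu-/- library was above each WT library, by 0.19 ± 0.04 on the log2 scale (adjusted p = 0.0758; adjusted p = 0.00822 without replicate 4).

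The promoters of these 2 neighbours are shown because their genes are close relatives with different responses. The 250 bases before each start were read from a RefSeq table on GRCm38.p6, 5′ to 3′ on the minus strand of chromosome 11, with matches to TGANTCA (a looser pattern than the AP-1 site) and to the κB consensus bound by NF-κB in capitals:
Ccl9, chr11:83578637-83578886: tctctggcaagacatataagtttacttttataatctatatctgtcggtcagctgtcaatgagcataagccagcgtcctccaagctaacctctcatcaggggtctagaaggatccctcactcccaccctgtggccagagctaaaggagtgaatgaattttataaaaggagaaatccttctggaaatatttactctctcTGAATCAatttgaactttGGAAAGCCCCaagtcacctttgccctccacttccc
Ccl6, chr11:83593088-83593337: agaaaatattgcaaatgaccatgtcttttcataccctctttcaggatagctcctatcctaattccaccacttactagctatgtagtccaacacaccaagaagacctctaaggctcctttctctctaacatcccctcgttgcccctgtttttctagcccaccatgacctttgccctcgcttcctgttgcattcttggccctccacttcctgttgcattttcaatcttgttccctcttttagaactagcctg

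The Ccl9 promoter held a κB match on the other strand at -35 to -26 and a TGANTCA match, which reads alike on both strands, at -53 to -47, both counted from the start of transcription; the 2 do not overlap. The Ccl6 window held neither, nor GAAA followed by any 2 bases and GAAA, a pattern of interferon-responsive elements. Over the 32851 promoter windows of 250 bases in that table, searched on both strands, 7.25% held the κB consensus, 6.75% TGANTCA and 2.98% the interferon-type pattern. The table covered 5 members, and the Ccl3, Ccl17 and Ccl22 windows held none of the 3 patterns. Ccl2, Ccl4, Ccl5, Ccl7 and Ccl24 had no entry. A match shows letters and not a bound site.

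Ccl17 and Ccl22, ligands of CCR4, and Ccl24, a ligand of CCR3, were the lowest members per length in every group. For the limit of detection, 3 counts in a library, 0.107 to 0.191 CPM, were taken as the floor. Ccl22 had 2, 2, 0 and 0 reads in the untreated WT libraries and 23, 31, 22, 23 and 14 with zymosan. With BAPTA-AM it had 31, 31, 20 and 25 reads. In Mcu-/- BMDMs it had 1, 1, 0 and 1 reads untreated and 46, 64 and 65 with zymosan. Untreated libraries of both genotypes thus lay under the floor and zymosan libraries above it, at 1.21 ± 0.301 CPM in WT (SD, n = 5) and 3.19 ± 0.456 CPM in Mcu-/- (SD, n = 3).

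The ratio of pooled scaled Ccl22 counts was 26.9 (95% interval 10.2 to 100.3) for zymosan in WT and 2.62 (95% interval 2.06 to 3.35) for Mcu-/- against WT under zymosan; these intervals are exact and cover counting error alone. The fit across all genes gave 1.39 ± 0.25 on the log2 scale for the latter (adjusted p = 0.000122), with no overlap between the groups. No difference in Ccl22 with BAPTA-AM passed the test: the groups overlapped, at a ratio of 1.21 (95% interval 0.921 to 1.59) and an adjusted p of 0.567. A difference between the genotypes in untreated cells was not detectable at this depth, the ratio being 0.614 (95% interval 0.0899 to 3.63).

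Ccl24, the gene of eotaxin-2, did not pass the filter. It had 5, 13, 0 and 0 reads in untreated WT libraries, 9, 9, 5, 9 and 6 with zymosan and 8, 7, 7 and 9 with BAPTA-AM. Untreated Mcu-/- libraries had 8, 7, 4 and 0 reads and the zymosan-stimulated ones 4, 0 and 4. The untreated WT replicates were uneven, 2 of 4 with no read. The pooled ratio of Mcu-/- to WT under zymosan was 0.357 (95% interval 0.144 to 0.776), a counting interval with no replicate error. Ccl17, which encodes TARC, had 1 read in all untreated WT libraries together, 1 with zymosan, 1 with BAPTA-AM and 0 in either Mcu-/- group; 3 counts over a group would be 0.0278 to 0.0547 CPM.

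Replicate 4 of the untreated Mcu-/- group differed from the others of its group in a set of members, not in all. Relative to the mean of replicates 1 to 3 it was 4.04-fold for Ccl5, 3.45-fold for Ccl3, 2.70-fold for Ccl4 and 1.92-fold for Ccl7. For Ccl9, Ccl2 and Ccl6 the factors were 1.20, 1.18 and 1.05. Set beside the WT untreated mean, replicate 4 was 3.39 times as high for Ccl3, where zymosan-stimulated Mcu-/- was 2.67 times the zymosan-stimulated WT. For Ccl2 the same 2 factors were 1.27 and 2.34, and for Ccl5 5.68 and 0.893. The zymosan-stimulated Mcu-/- libraries share its marker levels and no WT zymosan library does. The genotype and whatever those levels reflect therefore cannot be told apart in the zymosan comparison. Without replicate 4 no untreated Mcu-/- library shows those levels, so they also cannot be told apart from zymosan in Mcu-/- BMDMs or from the interaction. Against replicate 4 alone, the zymosan level of Mcu-/- BMDMs was 43.0-fold for Ccl4 and 13.3-fold for Ccl7, where WT rose 85.2-fold and 16.6-fold. The WT factor was also the larger for Ccl3, Ccl5 and Ccl9, and the smaller for Ccl2, Ccl6 and Ccl22. In bulk libraries, fewer cells of a type and less RNA per cell cannot be told apart either.

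Receptors of these ligands form a second list, of 15 CC and atypical receptor genes, of which 5 passed the filter: Ccr1, Ccr1l1, Ccr2, Ccr3 and Ccrl2. With zymosan in WT BMDMs 2 rose and 3 fell, beside 32.4% of all genes called higher and 36.8% lower. Ccrl2, an atypical receptor that binds chemerin, rose from 1.90 ± 0.237 CPM to 471 ± 15.6 CPM, a log2 change of 7.95 ± 0.17 (adjusted p = 2.29e-18), and Ccr3, the eotaxin receptor, rose by 1.23 ± 0.36 (adjusted p = 0.00547); under library totals 1 receptor was called higher in place of 2. Ccr1l1, a relative of Ccr1, changed by -1.22 ± 0.42 (adjusted p = 0.0142) at under 1 CPM. With zymosan and BAPTA-AM together 1 rose, Ccrl2, and 2 fell, beside 31.9% of all genes called higher and 34.2% lower. Ccr1 changed by -1.94 ± 0.30 and Ccr2 by -1.53 ± 0.22 relative to untreated cells.

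BAPTA-AM under zymosan lowered 1 receptor, beside 6.33% of all genes. It lowered 2 receptors without any 1 of untreated Mcu-/- replicates 1 to 3, and 3 without replicate 4, where 16.5% of all genes were lower. With a replicate block 0 were lowered, and 3 when only the groups compared were fitted. BAPTA-AM raised 0, with or without that library and by DESeq2, while 1, Ccr1l1, was higher at an unadjusted p under 0.05. Ccr1, the receptor of Ccl3, Ccl5, Ccl6 and Ccl9, went from 4.29 ± 0.408 to 1.79 ± 0.314 CPM, a change of -1.26 ± 0.30 (adjusted p = 0.00803).

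Between the genotypes under zymosan 3 receptors were higher in Mcu-/- BMDMs and 1, Ccr1, was lower, beside 31.8% of all genes higher and 30.3% lower. The number lower was 2 without untreated Mcu-/- replicate 4 or replicate 2, and 0 without Mcu-/- zymosan library 4 or 5. Ccr1l1 differed by 2.71 ± 0.39 (adjusted p = 1.49e-05), Ccr3 by 2.36 ± 0.34 (adjusted p = 1.7e-05) and Ccr1 by -0.85 ± 0.31 (adjusted p = 0.026). Here too untreated Mcu-/- replicate 4 differed from the rest of its group: it held Ccr3 at 23.96 CPM and Ccr1 at 1.71 CPM, where replicates 1 to 3 held 4.84, 4.98 and 5.88 CPM and 5.84, 7.11 and 6.94 CPM. In untreated cells Ccrl2 was higher in Mcu-/- BMDMs (0.85 ± 0.17, adjusted p = 0.0285; adjusted p = 0.00475 without replicate 4), a call lost when any 1 of the 4 untreated WT libraries was left out. Ccr2, the receptor of Ccl2 and Ccl7, was at 11.8, 13.1, 12.6 and 13.2 CPM in untreated WT and 7.65, 9.24 and 8.29 CPM in Mcu-/- replicates 1 to 3, a difference that passed without replicate 4 (adjusted p = 7.25e-05) and not with it (adjusted p = 0.11). Zymosan in Mcu-/- BMDMs raised 3 receptors and lowered 2, beside 34.3% of all genes called higher and 39.4% lower. Ccrl2 changed by 7.92 ± 0.16 and Ccr3 by 2.72 ± 0.37 (8.19 and 3.63 without untreated replicate 4). The lowered pair, Ccr1 and Ccr2, overlapped between the groups through untreated replicate 4 only, and 0 receptors were lowered when those groups were fitted alone. Without replicate 4 the log2 changes were -1.47 for Ccr1 and -1.07 for Ccr2 (quasi-likelihood test, adjusted p = 2.26e-11 and 1.3e-09). The interaction was higher for 2 (Ccr1l1 and Ccr3) and lower for 0 (for 1, Ccr1, without replicate 4), beside 15.2% and 20% of all genes. It was higher for 1 when untreated WT replicate 3, any 1 of untreated Mcu-/- replicates 1 to 3, or Mcu-/- zymosan library 4 or 5 was left out.

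**Figure D4:**
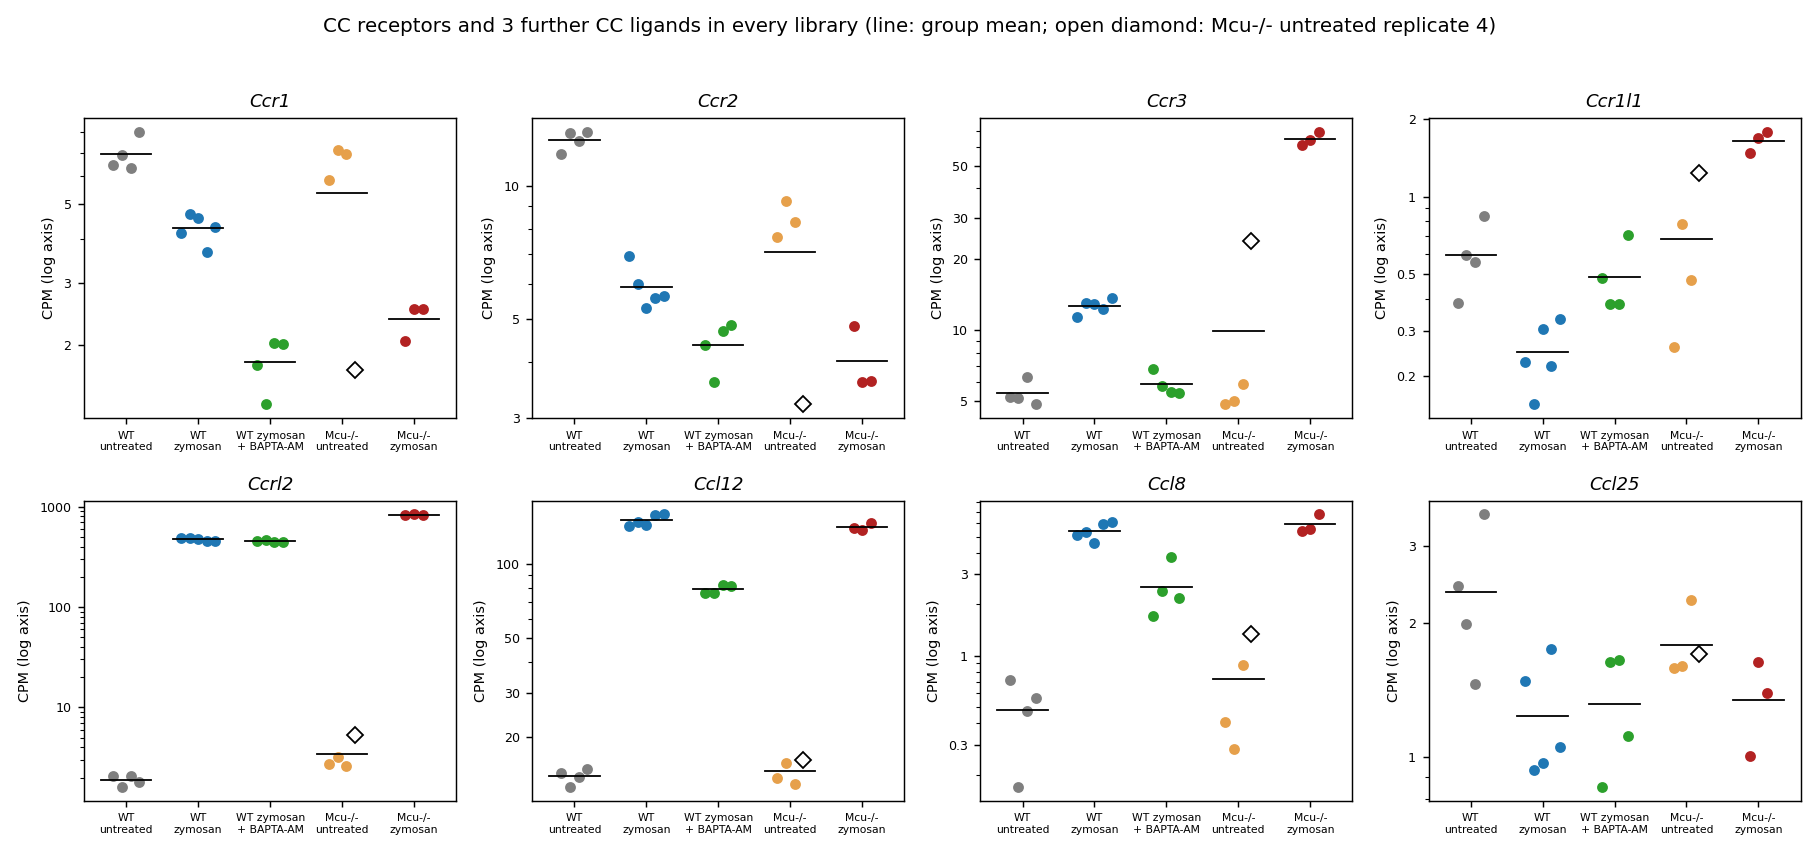
Level (CPM, log axis) of 5 CC receptor genes and of Ccl12, Ccl8 and Ccl25 in each library, with 1 point per library, a line at the group mean and an open diamond for untreated Mcu-/- replicate 4. The diamond is below the other untreated Mcu-/- points for Ccr1 and Ccr2 and above them for Ccr3. Ccl12 is at 150.1 CPM in WT and 141 CPM in Mcu-/- BMDMs with zymosan.

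Of 14 further CC ligands 13 were in the table and 3 passed the filter: Ccl8, Ccl12 and Ccl25. The shares of all genes called in each comparison, given above, stand beside these counts too. Ccl12 and Ccl8, which lie in the cluster of Ccl2 and Ccl7 and encode other monocyte attractants, rose with zymosan in WT. By the quasi-likelihood test Ccl8 rose by 3.49 ± 0.36 (adjusted p = 6.77e-08) and Ccl12 by 3.44 ± 0.07 (adjusted p = 1.62e-18). Ccl25 fell by 0.91 on the log2 scale (adjusted p = 0.00476). It was at 2.35 ± 0.882 CPM untreated and 1.24 ± 0.362 CPM with zymosan (SD), with overlapping libraries. Ccl25 overlaps Elavl1 on the other strand, so the limit given for Ccl2 and Ccl6 holds for it too. With BAPTA-AM the counts against untreated cells were again 2 and 1, the 1 lower ligand being lost without untreated WT replicate 4 or BAPTA-AM replicate 1. BAPTA-AM under zymosan lowered Ccl8, with a log2 change of -1.11 ± 0.29 (adjusted p = 0.017), and Ccl12, with -0.93 ± 0.06 (adjusted p = 1.78e-08), so that 52.6% of the zymosan level of Ccl12 remained. Leaving out BAPTA-AM replicate 1, 2 or 4 left 1 ligand lowered in place of 2. None of the 3 passed between genotypes, in untreated or zymosan-stimulated cells or in the interaction, with or without replicate 4, and none reached an unadjusted p under 0.05 there; with the zymosan groups fitted alone 1 was lower in Mcu-/-. Ccl12 stood at 150.1 ± 7.58 CPM in WT and 141 ± 4.68 CPM in Mcu-/- BMDMs with zymosan (-0.09 ± 0.07, 95% interval -0.22 to 0.05), while Ccl7 of the same cluster differed 1.75-fold. In Mcu-/- BMDMs zymosan raised Ccl8 and Ccl12 by 3.03 ± 0.35 and 3.27 ± 0.07 (3.50 and 3.33 without replicate 4).

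Genes with the most similar levels over the 20 libraries were sought among 8349 genes of at least 10 CPM in the mean of a group, by Pearson's r of log2(CPM + 1); r was high for many genes, since all share the same 20 libraries and treatments, and is a description. The nearest to Ccl2 were Rsbn1, Slc16a1 and Ccng2 (r from 0.9965 to 0.9987). For Ccl3 they were Sap30, Spred1 and Rela, a subunit of NF-κB (0.9982 to 0.9992), and for Ccl4 Gadd45b, Tnn and Acod1 (0.9989 to 0.9995). For Ccl5 they were Sdc4, Cd274 and Fam53c (0.9991 to 0.9993), and for Ccl7 Klf6, Nfkbie, an inhibitor of NF-κB, and Ptgs2 (0.9981 to 0.9982). Ccl9 was nearest to Nupr1, Dnaja1 and Sbds (0.9926 to 0.9942) and Ccl22 to Gem, Gm13889 and Ptch1 (0.9775 to 0.9873). Ccl6 stood alone among the members: among its nearest genes were H2-DMb1 and Twf1 (0.9499 and 0.9493), and its r with the nearest member, Ccl2, was -0.03.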

How the data were processed

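RNA of BMDM pellets was sequenced as paired ends in 20 libraries of 5 groups. The deposited table holds raw counts per gene, which the authors made with cutadapt, STAR against mm10 and HTSeq; the annotation, the strand setting and versions are not given in the sources used here. Its 20 columns name group and replicate. The 3 Mcu-/- zymosan columns are numbered otherwise than their labels, so they were assigned to the group only. Counts were analysed with edgeR 4.0.16 in R 4.3.3: filterByExpr, TMM, 1 quasi-likelihood fit with a coefficient per group, Benjamini-Hochberg adjustment over 11707 genes and a threshold of 0.05. DESeq2 1.42.0, other scalings, filters and groupings, and leaving out each library were alternatives. The fit was tested on simulated counts with the same spread in every library. No simulated library stood apart, so that test does not cover the effect of untreated Mcu-/- replicate 4. Exact permutation tests used log2(CPM + 1). Exon lengths and coding sequences came from GENCODE M21. Members and gene lists were chosen with earlier results of these data known; genes named beyond the members are Mcu, markers, up to 3 called genes with the largest change per list and comparison (other receptors and ligands were named after their values were seen), and the 3 most similar genes per member; a few items are not reported here. Replicate numbers were checked for pairing and did not pair the samples (correlations of deviations from -0.117 to 0.106). Replicates within a group differed by more than sampling noise (mean chi-square per gene of at least 1.60). That sets them apart from repeat sequencing of 1 library, but cannot tell separate mice from dishes of 1 culture. The common coefficient of variation between replicates was 12.4%, and 3.56% without untreated Mcu-/- replicate 4. Each library was counted as 1 sample. P-values measure the spread between these libraries, and counting intervals cover counting error only.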

Additional observations from a re-analysis of the deposited data

Results flagged for a closer look

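A library far from the others of its group (Dixon's ratio above its 95% value, in groups of 4 or 5) was found in 6 of 32 tests of a member in a group, where chance gives about 1 in 20; 4 of the 6 concerned untreated Mcu-/- replicate 4. That library held Ccl3 at 110 CPM, the others of the group lying between 30.6 and 33.9 CPM. It held Ccl4 at 97.0 CPM (others 35.4 to 36.4), Ccl5 at 7.10 CPM (others 1.67 to 1.86) and Ccl7 at 175 CPM (others 87.7 to 93.3). The other 2 were Ccl6 in untreated WT replicate 4, at 102 CPM against 89.2 to 90.7, and Ccl22 in untreated Mcu-/- replicate 3, at 0 CPM against 0.0355 to 0.0397, a difference of 1 read.

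The zymosan response differed between the genotypes, by the interaction in edgeR's quasi-likelihood fit, for 3 members. In the same fit 15.2% of all 11707 genes had a larger response in Mcu-/- BMDMs and 20% a smaller one. The response was larger in Mcu-/- BMDMs for Ccl2 by 1.06 on the log2 scale (adjusted p = 1.27e-08) and for Ccl6 by 0.37 (adjusted p = 0.00024). It was smaller for Ccl5, at -1.44 (adjusted p = 0.0236). Without replicate 4 the values of these members were 1.12, 0.39 and -0.64, and each passed, beside 31% and 29.3% of all genes.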

How the results depend on the processing

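Over 1512 member values recomputed under the alternatives, 1487 kept their side of the threshold, 16 gained a call, 7 lost one and 2 changed sign with a call before or after. Another 4 changed sign without a call before or after, and are among the 1487: Ccl3 in untreated Mcu-/- without replicate 4, and the interaction for Ccl9, near 0, in 3 alternatives. The called sign changes were Ccl6 with zymosan in Mcu-/- BMDMs, at -0.28 with library totals, and the interaction for Ccl4, which ran from -0.20 to 0.45 when each library was left out, 0.45 without untreated Mcu-/- replicate 4. Library totals moved the median of all genes by -0.491 for zymosan in WT, -0.43 with BAPTA-AM and -0.522 in Mcu-/-, and the share of calls that were higher from 46.8% to 18.6%, 48.3% to 19.9% and 46.5% to 19%; for BAPTA-AM under zymosan the median moved by 0.061 and that share from 50.4% to 74.9%. Under it 1 member, Ccl6, was called lower with zymosan in Mcu-/-, against 0 under TMM.

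Leaving out each library gave 3 to 7 members lower with BAPTA-AM under zymosan (4 in all libraries), 0 to 1 lower in Mcu-/- under zymosan (0), 0 to 2 higher in untreated Mcu-/- (0) and 2 to 5 higher and 0 to 1 lower in the interaction (2 and 1). The highest of these, and the 1 lower member of Mcu-/- under zymosan, came without untreated Mcu-/- replicate 4; without WT untreated replicate 4 Ccl6 was higher in untreated Mcu-/-, and without WT untreated replicate 1 Ccl5 lost its interaction. Fitting the compared groups alone called 7 members lower with BAPTA-AM and 1 lower in Mcu-/- under zymosan; the cause was not tested. DESeq2's Wald test called 1 higher in untreated Mcu-/-. Requiring an absolute log2 change of at least 1 left 0 lower in either zymosan comparison in WT, 0 lower with BAPTA-AM, 3 higher in Mcu-/- under zymosan and 1 higher in the interaction, as fewer values pass by construction. Of all 11707 genes it left 1594 and 1482 lower in those zymosan comparisons and 55 lower with BAPTA-AM under zymosan. In Mcu-/- under zymosan 831 genes were higher and 984 lower, and in the interaction 374 and 735. Shares of all genes without untreated Mcu-/- replicate 4 stand with each comparison above.

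Counts over all genes moved too. With BAPTA-AM under zymosan 753 genes were higher and 741 lower in all libraries, 1741 and 1788 with those groups alone, and 1783 and 1929 without replicate 4. In untreated Mcu-/- 15 were higher and 26 lower, 1 and 3 with those groups alone, 57 and 55 by DESeq2, and 178 and 213 without replicate 4. The interaction rose from 1779 to 3622 higher and from 2343 to 3417 lower without it.

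With a replicate block on the 17 libraries that carry label numbers, 3 members were lower with BAPTA-AM (4 in those libraries without the block, a fit added after seeing the data), Ccl7 losing its call at an adjusted p of 0.0754, and 417 genes were higher and 461 lower (658 and 653 without the block). The block changed no other member's call; among receptors, BAPTA-AM then lowered 0 in place of 1, and among further ligands 1 in place of 2. Same-numbered libraries did not deviate together, so the numbers are not taken as pairs. Depth limits Ccl17, Ccl22 and Ccl24, whose untreated counts were low.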
